A study of Homo sapiens with 8 samples.

Results

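The mitochondrial respiratory chain genes were taken as every nuclear gene on the array whose RefSeq symbol begins with NDUFA, NDUFB, NDUFC, NDUFS, NDUFV, UQCR, COX4, COX5, COX6, COX7, COX8 or ATP5, together with SDHA, SDHB, SDHC, SDHD and CYC1, with pseudogenes left out. Of 103 RefSeq symbols that meet this rule, 96 had a probe (128 probes in all; COX7A1 and UQCRHL were among those without), and 91 were bright enough to be tested among 15455 genes in all. The rule used names only and no measured value, although it was chosen with earlier results of these data known. It takes in 8 assembly factors (symbols that begin with NDUFAF), which help to build complex I without being part of it, and, among the genes with a probe, 3 noncoding RNAs named after their neighbours. The subunit long called NDUFA4 and its relative NDUFA4L2 now carry the symbols COXFA4 and COXFA4L2 in RefSeq and so fell outside the rule.

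The cells were OAW42-R, a cisplatin-resistant derivative of the serous ovarian cancer cell line OAW42 that was raised by repeated exposure to the drug. They were transfected either with a nontargeting pool of siRNAs (sictrl) or with a mix of 2 siRNAs against UCA1 (siUCA1), a long noncoding RNA that the study linked to drug resistance. Both groups received 20 nM of siRNA with the same reagent, and RNA was taken 24 h later per the labels, while the study's methods name a longer time. Each group had 4 one-colour arrays named A1, M2, A2 and A3, from 4 experiments that the study calls independent. All 8 arrays came from a single derived cell line and a single siRNA mix, so a result holds for that mix in that line.

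The respiratory chain is the set of protein complexes in the inner mitochondrial membrane that pass electrons from NADH and succinate to oxygen. Complex I takes electrons from NADH and complex II from succinate, coenzyme Q carries them to complex III, cytochrome c carries them on to complex IV, and oxygen is reduced there. Complexes I, III and IV pump protons, and complex V, the ATP synthase, uses the proton gradient to make ATP. Most subunits are encoded in the nucleus and imported, and a small hydrophobic core is encoded by mitochondrial DNA. The 13 mitochondrially encoded subunits were not analysed here.

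All values below are log2 values of a probe's processed signal relative to the 75th percentile of its own array, and a difference is the siUCA1 mean minus the sictrl mean with its standard error (SE). A gene is said to rise or fall only where limma's moderated test, with Benjamini-Hochberg adjustment over all 15455 genes, gave an adjusted p under 0.05. UCA1 itself, the targeted gene, had a mean of 3.16 ± 0.47 (SD, n = 4) on the siUCA1 arrays against 8.20 ± 0.49 on the sictrl arrays, and so was low where the labels say it was targeted (difference -5.04, limma adjusted p = 0.000122). The 4 arrays of each group held 20858 to 24039 spots well above background, and no spot was saturated. For sictrl A3 and siUCA1 A1, which lie in the same slide column, the surface trend that the scanner software fitted had a root mean square of 0.321 and 0.287, against at most 0.0943 on the other 6. Of 8 epithelial ovarian carcinoma markers, 6 were well above background on all 8 arrays, while WT1 and MUC16 were on none. Of the markers of other cell types, CD14 and VWF were on all 8 arrays, COL1A1 on 5, PTPRC on 2 and PECAM1 on 1, and COL3A1, PDGFRB, CD3E and CDH5 on none.

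Respiratory chain genes lay higher in siUCA1 than in sictrl as a group, by a small amount each. The difference was above 0 for 79 of the 91 genes (86.8%), against 54.2% of all genes tested, and its median was 0.26, or 1.20-fold, against 0.030 for all genes. Of the 91 genes, 16 rose, where 5.72% of all genes did, and 2 fell, where 5.85% of all genes did. Of these 2, NDUFV2-AS1 passed the detection filter only through the sictrl arrays, where it was the higher. In 29 genes every siUCA1 array was above every sictrl array, a pattern shown by 11.2% of all genes, and in 3 every siUCA1 array was below, against 9.67%. These are bulk RNA measurements, so fewer cells that express a gene and less RNA per cell cannot be told apart.

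**Figure D1:**
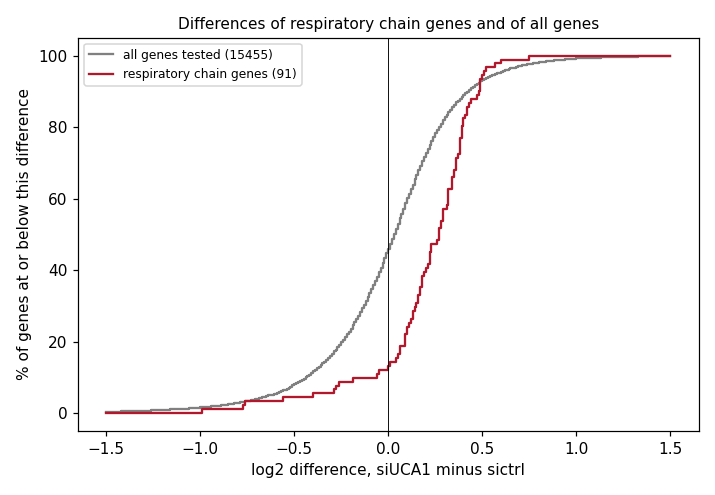
The x axis is the log2 difference, siUCA1 minus sictrl, and the y axis the percent of genes at or below it, for all 15455 genes tested (grey) and for the 91 respiratory chain genes (red). The red curve crosses 0 at 13.2% of its genes and lies to the right of the grey curve over the middle of the range, with medians of 0.26 and 0.030.

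The same shift was seen array by array. Relative to each gene's sictrl mean, the median gene was at -0.092, -0.026, 0.019 and 0.13 on sictrl A1, M2, A2 and A3 and at 0.21, 0.20, 0.30 and 0.33 on the siUCA1 arrays in the same order. No siUCA1 array had a median as low as the highest sictrl array on this relative scale. The plain median over the genes did overlap, siUCA1 A1 being at 6.93 and sictrl A2 at 6.97. The median difference was 0.23 and 0.24 within the 2 slide rows, each of which held 2 arrays of each group. Within the 4 slide columns, each with 1 array of each group, it was 0.31, 0.098, 0.20 and 0.42, the smallest being in the column of sictrl A3 and siUCA1 A1. The number of genes that rose moved with these 2 arrays and with the processing. It was 40 without both and ran from 1 (without siUCA1 A2) to 27 (without sictrl A3) when 1 array was left out. In these fits 12.9%, 2.25% and 7.89% of all genes rose, so the number of calls moved over the whole array too. By limma it was 0 after removal of the surface trend, under median scaling, under normexp background correction and with no detection filter, where 21, 3, 10 and 21 genes were higher at an unadjusted p under 0.05 and 1.84%, 0.699%, 1.07% and 0.0628% of all genes rose. All 16 genes stayed above 0 in each of 26 alternative fits, but each lost its call in some, being called in 9 (COX7C) to 22 (COX6C) of them. ATP5ME and ATP5PD were called in 10, UQCRB and UQCRC1 in 11 and NDUFB2 in 12. With the replicate name as a block, NDUFB2, COX7C, ATP5ME and UQCRC1 were not called, and with the slide column as a block 3 of the 16 were.

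**Figure D2:**
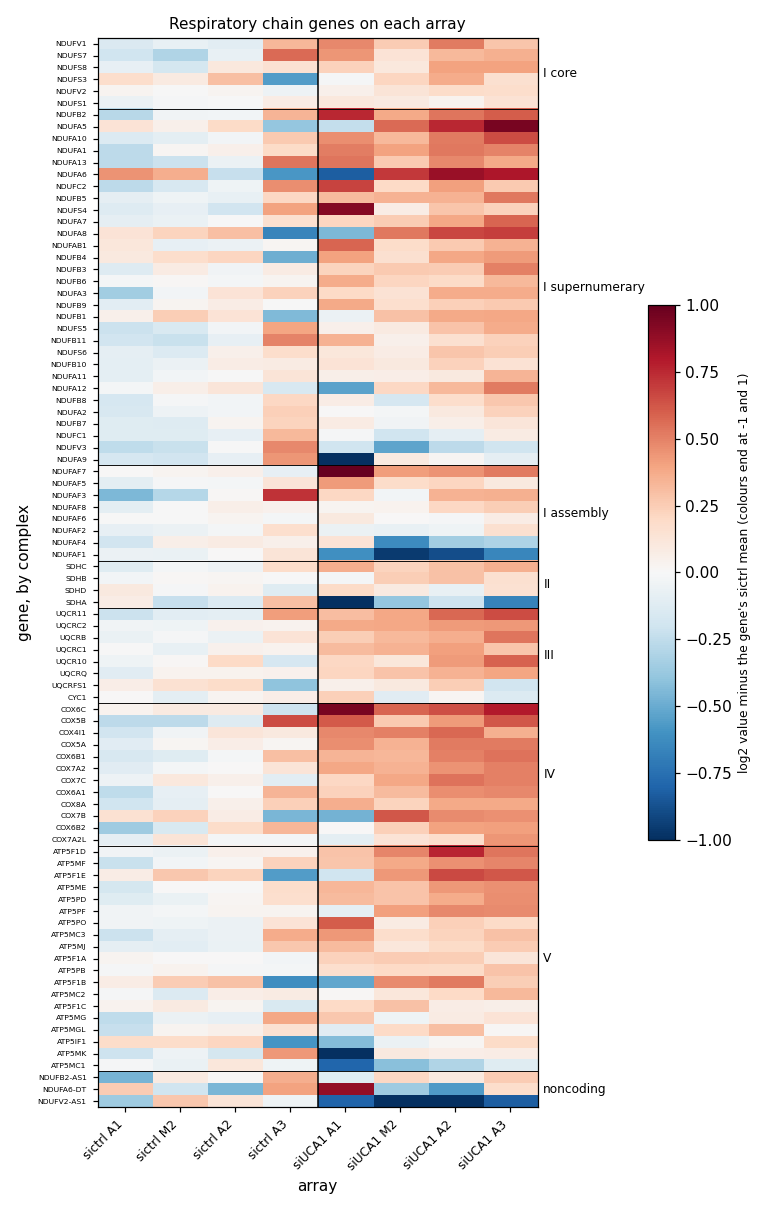
Each row is a respiratory chain gene, grouped by complex, and each column an array, and the colour is the log2 value minus the gene's sictrl mean on a scale that ends at -1 and 1. Most rows are red on the siUCA1 arrays to the right of the line, and NDUFA9 and SDHA are at the blue end of the scale on siUCA1 A1.

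These genes are bright. The brightest 10% of all genes, by mean level, held 67 of the 91, and there the median difference of all genes was 0.091 and 65.7% were above 0, against 0.31 and 62 of 67 for the respiratory chain genes. Among them 13 respiratory chain genes rose, where 3.88% of all genes that bright did. The dimmer genes accounted for 3 rises and for both falls, and the part that brightness has in the shift was not tested.

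Complex I, the entry point for NADH, is the largest complex and gave 37 subunits and 8 assembly factors. Of the 7 core subunits, which carry the electron path, 6 were above 0 with a median of 0.18 and none rose. The highest was NDUFV1, which binds NADH, at 0.38 ± 0.13 (SE, limma adjusted p = 0.0969). For NDUFV1 the sictrl arrays A1, M2, A2 and A3 were at 7.06, 7.13, 7.10 and 7.54 and the siUCA1 arrays at 7.69, 7.46, 7.72 and 7.49, so that sictrl A3 lay among the siUCA1 arrays.

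The 30 supernumerary subunits, which surround that core, were above 0 in 27 cases with a median of 0.27. Of them 4 rose (13.3%, against 5.72% of all genes). NDUFB2, a small subunit of the membrane arm, was at 7.90, 8.15, 8.16 and 8.52 on sictrl A1, M2, A2 and A3 and at 8.94, 8.56, 8.72 and 8.79 on the siUCA1 arrays. The groups did not overlap, but sictrl A3 came close to the lowest siUCA1 array, and the difference was 0.57 ± 0.14 (limma adjusted p = 0.0384). NDUFA1, an X-linked subunit that complex I needs for its assembly, was at 7.34, 7.62, 7.66 and 7.80 in sictrl and at 8.11, 8.01, 8.13 and 8.10 in siUCA1, a rise of 0.48 ± 0.11 (limma adjusted p = 0.0275). Its siUCA1 arrays lay closely together (SD 0.054) above a wider sictrl group (SD 0.19).

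NDUFA10 rose by 0.49 ± 0.12 and NDUFB5 by 0.38 ± 0.10 (limma adjusted p = 0.0339 and 0.0462). Their second probes gave 0.38 and 0.36, so both probes of each gene pointed the same way. At the lower end NDUFA9, a subunit at the joint between the membrane arm and the peripheral arm, differed by -0.56 ± 0.49, but this rested on siUCA1 A1 at 0.80. The other siUCA1 arrays were at 3.16, 3.09 and 2.98 and the sictrl arrays at 2.90, 2.88, 2.99 and 3.51, and without siUCA1 A1 the difference was 0.00459.

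Among the 8 assembly factors of complex I, 1 rose and 1 fell (12.5% each), where 5.72% and 5.85% of all genes did, and with 8 genes a single call makes that share. NDUFAF1, a factor for the assembly of the membrane arm, was at 3.79, 3.77, 3.84 and 3.97 on sictrl A1, M2, A2 and A3 and at 3.23, 2.88, 2.95 and 3.19 on the siUCA1 arrays. Every siUCA1 array was below every sictrl array, the difference was -0.78 ± 0.11 or 0.583-fold (limma adjusted p = 0.00491), and the call held in 25 of 26 alternative fits, being lost with no detection filter. NDUFAF7, a methyltransferase that acts in complex I assembly, was at 2.80, 2.82, 2.85 and 2.71 in sictrl and at 3.79, 3.21, 3.24 and 3.31 in siUCA1, a rise of 0.60 ± 0.14 (limma adjusted p = 0.0276). SiUCA1 A1 was the highest of these arrays, and without it the difference was 0.46 and was still called. The other 6 assembly factors ran from -0.29 to 0.23 and were not called, although the second, dimmer probe of NDUFAF6 gave 0.46 (limma adjusted p = 0.0303 over all probes) where the brighter one gave 0.043.

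**Figure D3:**
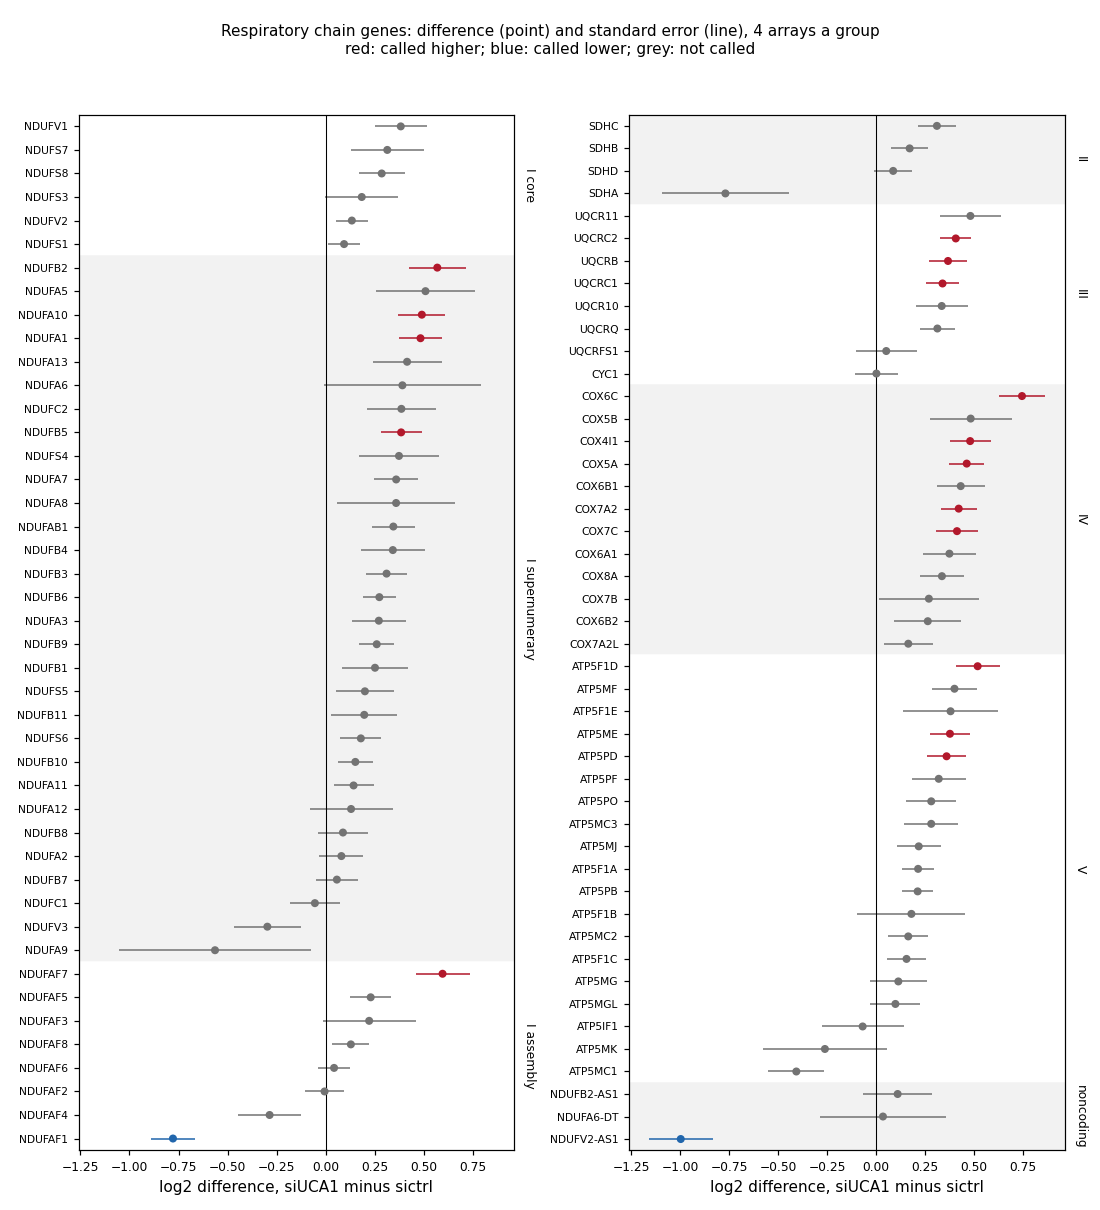
Each point is the log2 difference of a respiratory chain gene, siUCA1 minus sictrl, and its line is the SE of the limma fit over 4 arrays a group, with genes grouped by complex and shown red where they rose, blue where they fell and grey where not called. All 12 complex IV genes lie to the right of 0, and NDUFAF1, NDUFV2-AS1, SDHA and NDUFA9 lie farthest to the left.

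Complex II, succinate dehydrogenase, is made of 4 subunits and also works in the citric acid cycle. None of its genes was called. SDHB, the iron-sulfur subunit, differed by 0.17 ± 0.095 and SDHD, a membrane anchor, by 0.087 ± 0.097. SDHC, the other anchor, was at 5.49, 5.59, 5.56 and 5.80 on the sictrl arrays and at 5.97, 5.83, 5.91 and 5.97 on the siUCA1 arrays, without overlap, a difference of 0.31 ± 0.097 (limma adjusted p = 0.0759, exact two-sided permutation p = 0.0286, the smallest that 4 against 4 arrays allow). A dimmer SDHC probe gave -0.17 and another 0.20.

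SDHA, the flavoprotein that oxidises succinate, was the reference gene of the study's RT-qPCR. Its brightest probe was at 7.64, 7.34, 7.43 and 7.87 on sictrl A1, M2, A2 and A3 and at 5.76, 7.18, 7.36 and 6.90 on the siUCA1 arrays. The difference was -0.77 ± 0.32 (limma adjusted p = 0.161, exact two-sided permutation p = 0.0571), siUCA1 A1 being far below the rest. The 3 other SDHA probes gave -0.13 ± 0.14, -0.27 ± 0.21 and -0.20 ± 0.12, and on them siUCA1 A1 was the highest siUCA1 array, at 6.18, 4.83 and 3.99. All 4 probes thus had a lower siUCA1 mean, none passed the test, and the brightest probe gave -0.42 without siUCA1 A1 and -0.19 after removal of the surface trend. Of 10 other genes in common use as RT-qPCR references, HPRT1, a purine salvage enzyme, fell by 0.75 on the log2 scale (SE 0.095, limma adjusted p = 0.00339), and the other 9 were not called. All 9 were above 0, with B2M highest at 0.60, ACTB at 0.18 and GAPDH at 0.27, and the median of the 10 was 0.15.

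**Figure D4:**
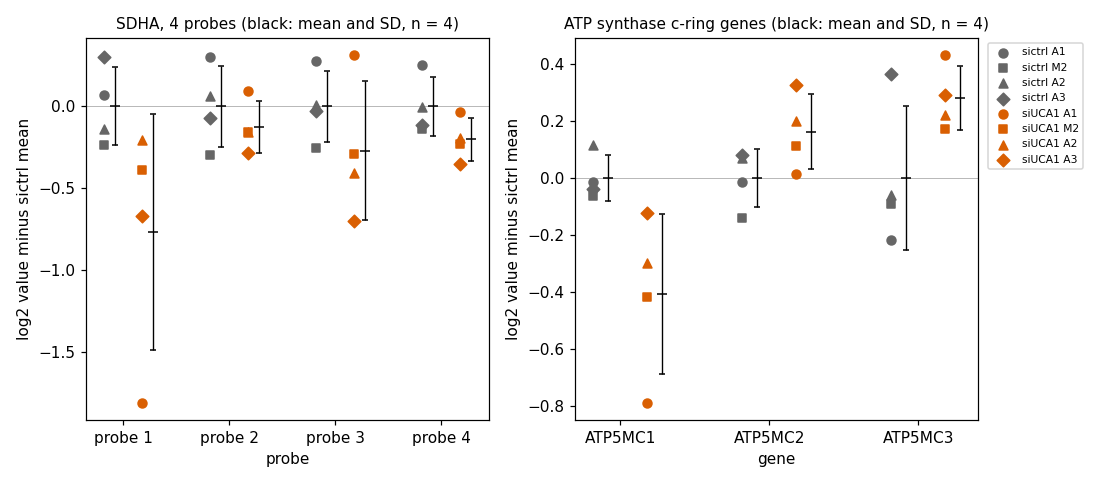
The y axes give the log2 value minus the sictrl mean for the 4 SDHA probes (left) and the 3 c-ring genes of ATP synthase (right), with 1 point per array (grey sictrl, orange siUCA1, shape by array name) and the group mean and SD in black. SiUCA1 A1 stands far below on SDHA probe 1 alone, and all siUCA1 points of ATP5MC1 lie below its sictrl points.

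Complex III passes electrons from coenzyme Q to cytochrome c. All 8 genes tested had a difference above 0, with a median of 0.34, and 3 rose (37.5%, against 5.72% of all genes). UQCRC2, a core protein of the matrix side, was at 5.08, 5.08, 5.17 and 5.16 on sictrl A1, M2, A2 and A3 and at 5.50, 5.50, 5.55 and 5.55 on the siUCA1 arrays. The groups did not overlap, their spread was small (SD 0.048 and 0.028), and the rise was 0.41 ± 0.079 (limma adjusted p = 0.0149). UQCRC1, the other core protein, rose by 0.34 ± 0.083 and UQCRB, which helps to bind coenzyme Q, by 0.37 ± 0.099.

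The largest difference in complex III was 0.48 ± 0.15 for UQCR11, which was not called as reported but was with the replicate name as a block (limma adjusted p = 0.0439). The 2 subunits that carry electrons outside cytochrome b were near 0, UQCRFS1, the Rieske iron-sulfur protein, at 0.051 ± 0.16 and CYC1, cytochrome c1, at 0.00114 ± 0.11. The sign of both turned under quantile normalization, median scaling and some other settings. Probes for UQCR10 gave 0.33, 0.17 and, on the dimmest, 0.64 (limma adjusted p = 0.0393 over all probes). UQCRH, the hinge protein, was not tested, since 1 of its probes was well above background on no array and the other on 3 siUCA1 arrays and no sictrl array.

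Complex IV, cytochrome c oxidase, reduces oxygen. All 12 genes tested were above 0, as reported and in each alternative that used 1 value per gene, with a median of 0.42, or 1.33-fold. Of them 5 rose (41.7%, against 5.72% of all genes). COX6C, a small subunit of the membrane part, was at 8.32, 8.38, 8.38 and 8.08 on sictrl A1, M2, A2 and A3 and at 9.24, 8.88, 8.93 and 9.09 on the siUCA1 arrays. It was the largest rise of any respiratory chain gene, 0.74 ± 0.12 or 1.67-fold (limma adjusted p = 0.00700), and was called in 22 of 26 alternative fits.

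COX4I1, the isoform of subunit IV that most tissues use, was at 6.85, 7.00, 7.16 and 7.14 in sictrl and at 7.52, 7.54, 7.61 and 7.39 in siUCA1, a rise of 0.48 ± 0.10 (limma adjusted p = 0.0215). COX5A was at 7.06, 7.19, 7.24 and 7.19 in sictrl and at 7.63, 7.51, 7.68 and 7.69 in siUCA1, a rise of 0.46 ± 0.089 (limma adjusted p = 0.0142). Its second probe, far more variable (SD 0.87 and 1.11), gave -0.0034 ± 0.58. COX7A2 and COX7C, small membrane subunits, rose by 0.42 ± 0.091 and 0.41 ± 0.11. The smallest difference was 0.16 ± 0.12 for COX7A2L, a factor that joins complexes III and IV in supercomplexes.

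Several subunits of complex IV have isoforms that are normally kept to muscle, lung or testis. COX4I2, COX6A2, COX7B2 and COX8C were well above background on none of the 8 arrays. COX6B2, known from testis, had 2 probes that disagreed. The dimmer was well above background on 1 of the 8 arrays. The brighter was on all of them, at 4.92, 5.13, 5.46 and 5.62 in sictrl and at 5.28, 5.52, 5.68 and 5.69 in siUCA1, with overlapping groups and a difference of 0.26 ± 0.17. Of the renamed pair outside the rule, COXFA4 was at 8.12 in sictrl and 8.41 in siUCA1, a difference of 0.29 (limma adjusted p = 0.153), and COXFA4L2 was on no array.

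Complex V, the ATP synthase, gave 19 genes, of which 16 were above 0, with a median of 0.21, and 3 rose (15.8%, against 5.72% of all genes). ATP5F1D, the delta subunit of the rotating central stalk, was at 5.81, 5.78, 5.89 and 5.89 on sictrl A1, M2, A2 and A3 and at 6.13, 6.33, 6.60 and 6.38 on the siUCA1 arrays, a rise of 0.52 ± 0.11 (limma adjusted p = 0.0220). ATP5ME, a small subunit of the membrane part, rose by 0.38 ± 0.10 and ATP5PD, of the peripheral stalk, by 0.36 ± 0.098. ATP5IF1, the natural inhibitor of the enzyme, differed by -0.069 ± 0.21, and its sictrl A3 value of 7.59 was far under the 8.36 to 8.40 of the rest of sictrl. ATP5MGL, a retrogene copy of the g subunit gene, was detected on all 8 arrays and differed by 0.098 ± 0.13.

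The 3 genes ATP5MC1, ATP5MC2 and ATP5MC3 encode the same mature c subunit, of which the rotor ring is built, with different import sequences. ATP5MC1 was at 6.84, 6.79, 6.97 and 6.82 in sictrl and at 6.07, 6.44, 6.56 and 6.73 in siUCA1, all below the sictrl arrays, a difference of -0.41 ± 0.14 (limma adjusted p = 0.103). ATP5MC2 differed by 0.16 ± 0.10 and ATP5MC3 by 0.28 ± 0.14. The difference of ATP5MC1 was lower than that of ATP5MC2 by 0.57 and lower than that of ATP5MC3 by 0.69 on the same arrays, and the within-array differences of both pairs did not overlap between the groups. This comparison was chosen after the values were seen and is a description, and siUCA1 A1 gave the lowest ATP5MC1 value (-0.28 without it).

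Of the 3 noncoding RNAs, NDUFV2-AS1, transcribed opposite the complex I gene NDUFV2, was at -1.45, -0.83, -0.96 and -1.13 in sictrl and at -1.90, -2.36, -2.19 and -1.92 in siUCA1. It fell by 1.00 on the log2 scale (SE 0.16, limma adjusted p = 0.00774) without overlap, but was dim and well above background on only 3 of the siUCA1 arrays. It was kept only through the sictrl arrays, where it was the higher, so the filter leaned toward a fall and the call is not independent of it. With detection required on all 8 arrays it was not tested. Its difference ran from -1.18 to -0.35 over the alternative fits. It was -0.35 under normexp, and there and with no detection filter it was not called. NDUFV2 itself differed by 0.13 and was not called. NDUFA6-DT and NDUFB2-AS1 differed by 0.035 ± 0.32 and 0.11 ± 0.18.

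Genes that serve the respiratory chain without meeting the rule had medians near 0. Of 41 assembly factors for complexes I to V, 21 were above 0 with a median of 0.00296, 2 rose and 2 fell (4.88% each), near the 5.72% and 5.85% of all genes. COA5, a factor for complex IV, rose by 0.83 and COX10, which makes a heme A precursor, by 0.50. COX11, which delivers copper to complex IV, fell by 0.78 on the log2 scale and TMEM126B, which works with NDUFAF1 in complex I assembly, fell by 0.43. Of 75 mitochondrial ribosomal protein genes, 3 rose (MRPS21 by 0.52, MRPS22 by 0.47 and MRPL48 by 0.42) and 2 fell (MRPL37 at -0.45 and MRPL32 at -0.31), or 4.00% and 2.67%, below the shares of all genes, and the median was 0.024. Of 15 genes for coenzyme Q, cytochrome c and electron transfer flavoprotein, 2 rose and 2 fell (13.3% each), above the 5.72% and 5.85% of all genes. The coenzyme Q gene PDSS2 and ETFDH, which feeds electrons from fatty acid oxidation to coenzyme Q, rose by 0.45 and 0.38. COQ8B and COQ3 fell by 0.72 and 0.43 on the log2 scale, and the median of the 15 was 0.033. The difference between these lists and the respiratory chain genes was not tested.

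The citric acid cycle enzymes lay between, with 8 of 13 above 0 and a median of 0.13. Of 16 regulators of mitochondrial gene expression and DNA, 1 was called, or 6.25%, near the 5.72% of all genes that rose. It was ESRRA, an orphan nuclear receptor that drives many respiratory chain genes. The siUCA1 arrays had a mean of 4.82 ± 0.033 (SD, n = 4) and the sictrl arrays 4.25 ± 0.024, a rise of 0.57 ± 0.078 (limma adjusted p = 0.00438), while the median of the 16 was -0.055. In 5 of the 16 every siUCA1 array was above every sictrl array, a pattern of 11.2% of all genes, the largest difference being 0.94 ± 0.27 for GABPB2, a partner of the ETS factor GABPA (limma adjusted p = 0.0570).

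Respiratory chain promoters often hold sites for NRF1, for ETS factors such as GABP, and for YY1 and SP1. RefSeq windows of 300 bases, from 250 before to 50 after a start site on GRCh38.p14, were matched by symbol for 80 of the 96 genes. Of the 16 genes that rose, NDUFB5, UQCRB, COX6C and ATP5F1D had no match. The windows below belong to a gene that rose in complex I, IV, V and III each, and were picked, after their values and letters were known, as windows that hold an ETS, NRF1 or YY1 match. Capitals mark matches on either strand to GCGCATGCG (NRF1), CCGGAAG (ETS), AAGATGGC (YY1) or GGGCGG (SP1).

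The window of NDUFA1 is chrX:119871582-119871881, plus strand, with 1 ETS and 2 SP1 matches.
NDUFA1: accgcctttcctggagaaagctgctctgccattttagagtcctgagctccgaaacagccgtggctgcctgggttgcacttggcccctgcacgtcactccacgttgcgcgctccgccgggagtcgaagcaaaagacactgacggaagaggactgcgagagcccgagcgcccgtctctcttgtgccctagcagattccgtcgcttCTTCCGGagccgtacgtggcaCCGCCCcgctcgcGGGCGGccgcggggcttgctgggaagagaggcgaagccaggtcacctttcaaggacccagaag
The window of COX4I1 is chr16:85799445-85799744, plus strand, with 1 ETS and 2 SP1 matches.
COX4I1: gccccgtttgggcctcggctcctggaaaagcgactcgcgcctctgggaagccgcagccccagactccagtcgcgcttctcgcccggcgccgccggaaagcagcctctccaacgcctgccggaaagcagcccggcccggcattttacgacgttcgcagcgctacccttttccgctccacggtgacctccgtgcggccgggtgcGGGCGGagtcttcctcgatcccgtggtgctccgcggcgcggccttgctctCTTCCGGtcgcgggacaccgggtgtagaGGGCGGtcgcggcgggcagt
The window of ATP5ME is chr4:674227-674526, minus strand, with 1 NRF1 and 1 ETS match.
ATP5ME: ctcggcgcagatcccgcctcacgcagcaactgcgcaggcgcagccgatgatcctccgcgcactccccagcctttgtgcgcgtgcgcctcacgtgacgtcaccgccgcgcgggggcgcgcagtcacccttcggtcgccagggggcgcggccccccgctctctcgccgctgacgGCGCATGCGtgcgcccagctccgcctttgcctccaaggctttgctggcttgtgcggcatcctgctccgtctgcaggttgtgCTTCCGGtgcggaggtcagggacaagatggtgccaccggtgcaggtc
The window of UQCRC1 is chr3:48609597-48609896, minus strand, with 1 YY1 and 1 SP1 match.
UQCRC1: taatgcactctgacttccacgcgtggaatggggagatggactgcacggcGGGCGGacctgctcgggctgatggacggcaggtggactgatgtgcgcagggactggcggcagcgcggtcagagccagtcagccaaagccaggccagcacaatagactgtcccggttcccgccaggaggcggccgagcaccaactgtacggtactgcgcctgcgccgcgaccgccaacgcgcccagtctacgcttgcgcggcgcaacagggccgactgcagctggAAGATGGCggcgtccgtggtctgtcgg

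Counted per gene over all its windows, the NRF1 letters were in 12 of 73 tested protein-coding respiratory chain genes (16.4%), against 4.34% of 9515 tested genes with a window and 2.34% of 27305 genes in the table. The YY1 letters were in 17.8%, against 6.72% and 3.52%. The ETS letters were in 30.1%, against 22.8% and 12.2%, and the SP1 letters in 65.8%, against 77.0% and 48.3%. Among the 12 genes that rose and have a window, 1 held the NRF1, 4 the ETS, 1 the YY1 and 8 the SP1 letters, and among 60 that were not called, 11, 18, 12 and 39 did. These shares are descriptions, and no test was made of them.

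**Figure D5:**
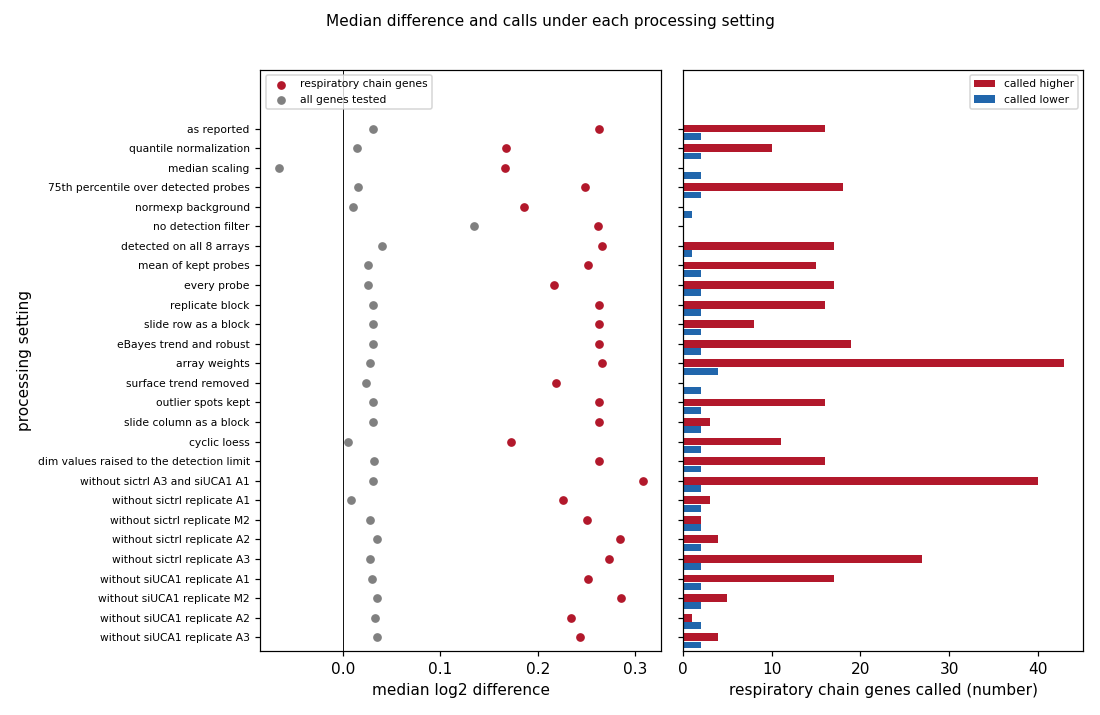
Rows are the fit as reported and 26 alternative fits, the left panel gives the median log2 difference of respiratory chain genes (red) and of all genes tested (grey), and the right panel the number of respiratory chain genes called higher (red bars) or lower (blue bars). The median of the respiratory chain genes stays between 0.17 and 0.31 and to the right of that of all genes, while the number called higher runs from 0 to 43.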

How the data were processed

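Total RNA was labelled with Cy3 and hybridised to 8 Agilent arrays on 1 slide. The authors deposited scanner output of Feature Extraction 10.7.3.1, per the submitters' processing notes. The processed signal used here is an intensity that the software had corrected for background and surface trend before it was deposited. The setting called removal of the surface trend came on top of this. It subtracted, in blocks of 24 rows by 20 columns of spots, the median deviation from the mean over arrays. The flag columns (well above background, outlier) are yes-or-no values. The deposited table of series values held the same processed signals and was not used again.

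From these files, outlier spots and control spots were left out, log2 of the signal was taken, each array's 75th percentile over 60901 non-control spots was subtracted, and spots of a probe were averaged. A probe was kept if all 4 arrays of either group flagged it as well above background (19046 probes). A gene took its brightest kept probe, 22 respiratory chain genes having several. Probes were named through their RefSeq accession. limma 3.58.1 in R 4.3.3 (lmFit, eBayes, no covariate) was fitted to all 15455 genes, with Benjamini-Hochberg adjustment, and 4263 genes had an unadjusted p under 0.05. Per-probe adjusted p-values came from the same fit over all kept probes. Exact permutation tests were two-sided. The number of arrays limits the precision.

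Genes named in the text were UCA1, the called genes, the highest and lowest of each class, complex II, tissue-restricted isoforms, UQCRFS1, COX4I1 and ATP5IF1, genes whose probes disagreed, and called genes of the other lists. Of these, 2 genes are not reported here by name, and 1 of them is left out of the plots of single genes. The c-ring genes ATP5MC2 and ATP5MC3, NDUFV2, ACTB, GAPDH, B2M, GABPB2 and COXFA4 were added after values were seen. Members and lists were chosen with earlier results of these data known. The alternatives comprised 14 settings, 8 that leave out 1 array each, and 3 added after seeing the data (slide column as a block, cyclic loess, dim values raised to the detection limit). A further 1 leaves out both sictrl A3 and siUCA1 A1, the arrays with the largest surface trend.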

Additional observations from a re-analysis of the deposited data

Results flagged for a closer look

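In 7 of 74 sets of 4 arrays of a named gene, 1 array stood apart from the other 3 by more of the range than Dixon's 95% critical value allows. Chance flags about 1 in 20 sets. Sictrl A3 was the array that stood apart in 4 sets, siUCA1 A1 in 2 and siUCA1 A3 in 1. In sictrl, A3 was low for ATP5IF1, at 7.59 against 8.36 to 8.40, and high for NDUFA9 (3.51 against 2.88 to 2.99), NDUFB5 (5.55 against 5.25 to 5.30) and NDUFV1 (7.54 against 7.06 to 7.13). In siUCA1, A1 was low for NDUFA9, at 0.80 against 2.98 to 3.16, and high for NDUFAF7, at 3.79 against 3.21 to 3.31. A3 was high for NDUFB5 in siUCA1, at 5.87 against 5.66 to 5.69. Sictrl A3 and siUCA1 A1 are the 2 arrays with the largest surface trend, and its part in these values was not tested.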

How the results depend on the processing

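The median difference of the respiratory chain genes stayed between 0.17 and 0.31 over 26 alternative fits, and the share above 0 between 76.9% and 89.0%. The number that rose (16) became 0 under median scaling, normexp, no detection filter and removal of the surface trend (3, 10, 21 and 21 genes above 0 then had an unadjusted p under 0.05), 3 with the slide column as a block, 8 with the slide row as a block, 10 under quantile normalization, 40 without sictrl A3 and siUCA1 A1, and 43 with array weights. Of all genes 0.699%, 1.07%, 0.0628%, 1.84%, 3.82%, 3.85%, 5.57%, 12.9% and 16.5% rose in these fits, in the same order. With no detection filter 47753 genes were tested. Leaving out 1 array gave 1 to 27 rises: 3, 2, 4 and 27 without sictrl A1, M2, A2 and A3, and 17, 5, 1 and 4 without siUCA1 A1, M2, A2 and A3. Median scaling left 2 falls and no rise. The number that fell (2) became 1 under normexp and with detection on all 8 arrays, where NDUFV2-AS1 was not tested. It was 0 with no detection filter and 4 with array weights. Beyond the smaller sample or larger table, the cause was not tested.

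With the replicate block, 16 rose, of which 12 were among the 16 reported above, and 2 fell. NDUFB2, COX7C, ATP5ME and UQCRC1 were then not called (limma adjusted p = 0.0675, 0.0576, 0.0529 and 0.0572), and UQCR11 was among those newly called (limma adjusted p = 0.0439). Arrays of the same name correlated at 0.038 (A1), 0.28 (M2), 0.22 (A2) and 0.13 (A3) in their deviations from the group means, so, A1 being under 0.1, the names were not taken to pair the arrays. SiUCA1 M2, A2 and A3 each correlated best with the sictrl array of their own name, and siUCA1 A1 with sictrl A3 (0.18). SiUCA1 A1 and sictrl A3 share a slide column and have the largest surface trend, so the low A1 value cannot decide whether a shared name marks a pair.

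Some differences turned sign, most of them near 0 as reported, but NDUFA9 was reported at -0.56 and ATP5MC2 at 0.16. CYC1 was at -0.064 under quantile normalization, -0.095 under median scaling, -0.014 with the percentile over detected probes, -0.080 under normexp, -0.016 with array weights, -0.00751 after removal of the surface trend, -0.069 under cyclic loess, -0.056 without sictrl A3 and siUCA1 A1, and between -0.077 and 0.048 without 1 array. UQCRFS1 was at -0.050 under quantile normalization, -0.045 under median scaling, -0.035 under normexp, -0.014 with array weights, -0.032 under cyclic loess, -0.084 without both arrays, and between -0.083 and 0.13 without 1 array. NDUFA9 was at 0.015 with array weights, 0.15 without both arrays, and between -0.78 and 0.00459 without 1 array. ATP5MC2 was at -0.00155 under quantile normalization and -0.033 under normexp, SDHD at -0.00985 under median scaling, and NDUFB2-AS1 at -0.11 as the mean of its probes. Without 1 array, ATP5IF1 lay between -0.26 and 0.052, NDUFB2-AS1 between -0.045 and 0.23, and NDUFA6-DT between -0.25 and 0.23.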
